A study of Rattus norvegicus with 12 samples.

Results

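The 6 secreted vascular growth factors Vegfa, Vegfb, Vegfc, Pgf, Angpt1 and Angpt2 were described in rat pancreatic islets, as 6 of the 25888 gene symbols in the deposited count table. They were chosen by symbol, as the VEGF family members and angiopoietins of the table other than Figf (Vegfd) and Angpt4, and for each symbol the transcript with the highest mean count over the 12 libraries was used. Vegfb, Vegfc, Pgf, Angpt1 and Angpt2 had 1 listed transcript each. Vegfa had 4, whose counts were nearly the same in every library, so a read may have been counted for more than 1 of them, and the 4 are not separate measurements. All 6 ligands passed the filter on low counts.

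The islets came from Sprague Dawley rats. In the growth-restricted group, named IUGR for intrauterine growth restriction, both uterine arteries of the dam had been ligated at embryonic day 18. Control litters were culled to 8 pups, and the labels do not say whether control dams had a sham operation. Rats were 2 or 10 weeks old when their islets were isolated, and 3 libraries were made for each of 4 groups: control at 2 weeks, IUGR at 2 weeks, control at 10 weeks and IUGR at 10 weeks. They were separated by collagenase perfused through the duct and by a Histopaque density gradient, and total RNA was depleted of ribosomal RNA. The labels give neither the sex of the pups nor whether islets of several pups or litters were pooled, so p-values measure only the spread between these libraries.

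VEGF ligands are dimers that bind receptor tyrosine kinases on endothelium. Vegfa acts through Kdr (VEGFR2) and is held by Flt1 (VEGFR1), Vegfb and Pgf bind Flt1, and Vegfc binds Flt4 (VEGFR3), the receptor of lymphatic endothelium. The neuropilins Nrp1 and Nrp2 are co-receptors. Angiopoietins bind Tek (Tie2), a receptor that pairs with Tie1: Angpt1, made largely by mural and stromal cells, activates it and steadies vessels, whereas Angpt2, released by endothelium itself, can act as its antagonist while vessels are remodelled. Islets are densely supplied with fenestrated capillaries, and beta cells are a known source of Vegfa.

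Libraries held between 30.4 and 64.2 M counts (M, mega). A list of 26 genes of acinar cells, the enzyme-secreting cells that surround islets, took 20% to 39.3% of counts in controls and 4.08% to 8.73% in IUGR islets at 2 weeks, and 13.2% to 44.7% against 0.583% to 2.18% at 10 weeks. The groups therefore did not overlap in their acinar share at either age, and replicate 1 at 2 weeks and replicates 1 and 3 at 10 weeks stood highest among controls. Levels are given as CPM, counts scaled by library size after TMM normalization, which takes most transcripts to be level between libraries. Transcript lengths were not at hand, so levels were compared between groups for 1 gene and not between genes. The beta cell list of 10 genes, of which 9 were found, summed to 21928.6 to 38489.7 CPM in 2-week controls, 33887.8 to 38314.3 in 2-week IUGR islets, 94066.1 to 141581.5 in 10-week controls and 176369.2 to 190868.4 in 10-week IUGR islets. All 15 genes of an endothelial list had counts in every library.

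The stretches of 250 bases that precede the RefSeq start sites (build GRCr8) of Vegfa, Vegfc and Pgf are shown because in growth-restricted islets Vegfa ran opposite to Vegfc and Pgf with age. Vegfa, on the plus strand at chr9:22452604-22452853, is given for the first of its 2 listed start sites. Vegfc lies on the minus strand at chr16:44560888-44561137, and Pgf on the minus strand at chr6:110557748-110557997. Each is written 5′ to 3′ on the strand of the gene, and capitals mark the GC box GGGCGG or its reverse complement CCGCCC.
Vegfa: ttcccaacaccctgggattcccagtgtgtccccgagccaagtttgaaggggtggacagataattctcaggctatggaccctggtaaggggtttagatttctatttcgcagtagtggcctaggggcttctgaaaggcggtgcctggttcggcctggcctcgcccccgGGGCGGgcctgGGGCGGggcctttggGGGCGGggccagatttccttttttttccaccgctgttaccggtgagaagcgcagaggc
Vegfc: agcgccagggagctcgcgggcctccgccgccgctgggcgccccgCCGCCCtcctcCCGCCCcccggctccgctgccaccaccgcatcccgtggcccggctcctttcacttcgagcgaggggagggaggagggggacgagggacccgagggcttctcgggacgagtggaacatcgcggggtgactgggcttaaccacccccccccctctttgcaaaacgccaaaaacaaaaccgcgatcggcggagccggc
Pgf: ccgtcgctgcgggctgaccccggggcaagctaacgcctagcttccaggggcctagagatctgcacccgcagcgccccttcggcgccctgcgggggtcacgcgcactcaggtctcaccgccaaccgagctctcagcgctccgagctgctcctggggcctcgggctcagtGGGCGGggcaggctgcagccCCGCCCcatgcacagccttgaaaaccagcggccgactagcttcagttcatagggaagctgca
RefSeq windows were matched for 4 of the 6 ligands, the fourth being Vegfb, on the minus strand at chr1:213607153-213607402. The GC box was found 3 times before the first Vegfa start, 4 times before Vegfb and 2 times each before Vegfc and Pgf, against 0 times before the second Vegfa start. It occurred in 30.5% of all 33465 windows of this length. The core letters of the hypoxia response element, searched as ACGTG on both strands, were in none of these 5 windows and in 16.6% of all. Only these 250 bases were searched, so an element farther from a start site would not have been seen. The letters GCGTG, the other common core of that element, were found 1 time before Vegfb and 1 time before Pgf, and in 25.9% of all windows. TATAAA was in none of the 5 and in 12.9% of all. The share of G and C was 60.4% before the first Vegfa start, 73.2% before Vegfb, 72.4% before Vegfc and 69.2% before Pgf.

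Vegfa, the main endothelial growth factor of islets (transcript ENSRNOT00000026637), stood at 131.2, 137.6 and 164.7 CPM in replicates 1, 2 and 3 of 2-week controls, and at 124.3, 123.8 and 131.1 CPM in 2-week IUGR islets. At 10 weeks it stood at 225.7, 187.7 and 178.3 CPM in controls and at 297.9, 257.3 and 312.6 CPM in IUGR islets. The 3 growth-restricted libraries were thus the lowest at the younger age, though the controls came down to almost the same level, and by 10 weeks they were the highest of all 12 by a clear margin. Group means were 144.5 ± 17.8, 126.4 ± 4.08, 197.3 ± 25.1 and 289.2 ± 28.6 CPM (SD, n = 3) in the order control and IUGR at 2 weeks, control and IUGR at 10 weeks.

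Vegfb, a ligand of Flt1 linked to lipid uptake through endothelium (ENSRNOT00000050891), was at 15.7, 13.5 and 11.7 CPM in 2-week controls and at 9.43, 11.3 and 10.1 CPM in 2-week IUGR islets. At 10 weeks the values were 10.6, 11.2 and 13.1 CPM in controls and 9.80, 8.19 and 10.6 CPM in IUGR islets. At both ages the growth-restricted libraries lay at the lower end, and the 10-week groups met at nearly the same value. Means ranged from 9.51 ± 1.20 CPM in 10-week IUGR islets to 13.6 ± 2.01 CPM in 2-week controls (SD, n = 3), so Vegfb varied less over the 4 groups than any other ligand in fold terms.

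Vegfc, the ligand of lymphatic endothelium (ENSRNOT00000015529), stood at 4.87, 6.90 and 5.34 CPM in 2-week controls and at 7.64, 10.1 and 7.13 CPM in 2-week IUGR islets. In 10-week controls it stood at 3.77, 4.66 and 4.53 CPM and in 10-week IUGR islets at 4.20, 3.16 and 4.25 CPM. The 2-week IUGR libraries were the 3 highest, and the 10-week groups overlapped. Pgf, placental growth factor (ENSRNOT00000007790), had the fewest counts of the 6 ligands, 14 to 192 per library, and its low values are the least precise. It was at 1.40, 1.49 and 1.59 CPM in 2-week controls, 2.72, 2.28 and 2.09 CPM in 2-week IUGR islets, 0.444, 1.69 and 1.06 CPM in 10-week controls and 0.584, 0.747 and 1.14 CPM in 10-week IUGR islets. The 2-week IUGR libraries were again the 3 highest, while 10-week controls spread so widely that they enclosed all 3 IUGR libraries of that age.

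Angpt1, the Tek agonist (ENSRNOT00000007979), was at 5.58, 7.10 and 6.89 CPM in 2-week controls and at 7.48, 8.30 and 7.87 CPM in 2-week IUGR islets. In 10-week controls the values were 2.95, 4.63 and 4.89 CPM, and in 10-week IUGR islets 3.28, 1.40 and 1.46 CPM. Replicate 1 of the last group lay within the control range, and the other two lay far below it. Angpt2, the context-dependent Tek antagonist (ENSRNOT00000022774), was at 15.5, 27.8 and 29.6 CPM in 2-week controls and at 42.6, 50.5 and 43.1 CPM in 2-week IUGR islets. At 10 weeks it was at 8.78, 13.4 and 16.5 CPM in controls and at 4.73, 5.90 and 5.51 CPM in IUGR islets. Growth-restricted islets thus held both the 3 highest and the 3 lowest Angpt2 libraries of the study, with the controls of both ages in between and replicate 1 the lowest of the controls at each age. The group means of Angpt2 were 24.3 ± 7.69, 45.4 ± 4.42, 12.9 ± 3.91 and 5.38 ± 0.596 CPM (SD, n = 3) in the order used above.

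**Figure D1:**
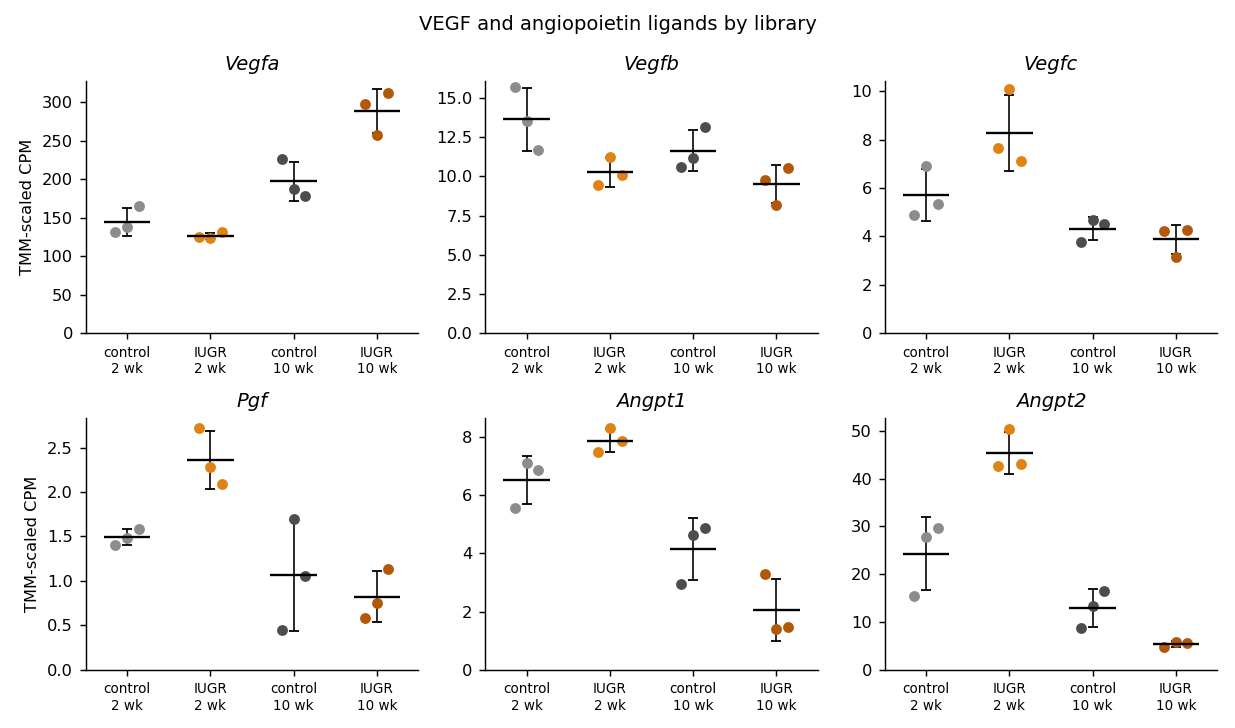
Level of each ligand in TMM-scaled CPM (y axis, from 0, scaled per panel) in the 4 groups (x axis); points are libraries, black bars the mean and whiskers the SD of 3 libraries. Vegfa was highest in 10-week IUGR islets (257.3 to 312.6 CPM), where Angpt2 was lowest (4.73 to 5.90 CPM) after its highest values in 2-week IUGR islets (42.6 to 50.5 CPM).

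The endothelial genes against which the ligands were read did not move as 1 unit. Pecam1, an adhesion molecule of endothelial junctions, was at 79.8, 153.5 and 141.4 CPM in 2-week controls and 168.4, 201.0 and 168.5 CPM in 2-week IUGR islets, then at 78.4, 144.6 and 134.5 CPM in 10-week controls and 52.8, 68.3 and 66.2 CPM in 10-week IUGR islets. Cdh5, the cadherin of endothelial junctions, was at 32.8, 58.0 and 45.0 CPM in 2-week controls, 56.2, 79.8 and 62.4 CPM in 2-week IUGR islets, 24.9, 50.3 and 41.2 CPM in 10-week controls and 13.2, 12.3 and 17.7 CPM in 10-week IUGR islets. Both were lowest in 10-week IUGR islets, with no overlap with the controls of that age. Kdr, itself the receptor of Vegfa, stood at 61.0, 97.0 and 92.4 CPM in 10-week controls and 73.6, 57.2 and 80.9 CPM in 10-week IUGR islets, and these overlapped. At 2 weeks Kdr was at 47.0, 68.3 and 57.7 CPM in controls and at 60.6, 83.9 and 63.3 CPM in IUGR islets, which overlapped too. In islet RNA taken in bulk, fewer endothelial cells and less of a transcript in each cell cannot be told apart. Among controls the library with the lowest level of all 3 genes was replicate 1 at each age, which took 39.3% and 40.7% acinar counts. Replicate 3 of the 10-week controls took more, 44.7%. Its levels of all 3 genes lay nearer to those of replicate 2, which took 13.2%. The part of acinar carry-over in these levels was not tested.

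**Figure D2:**
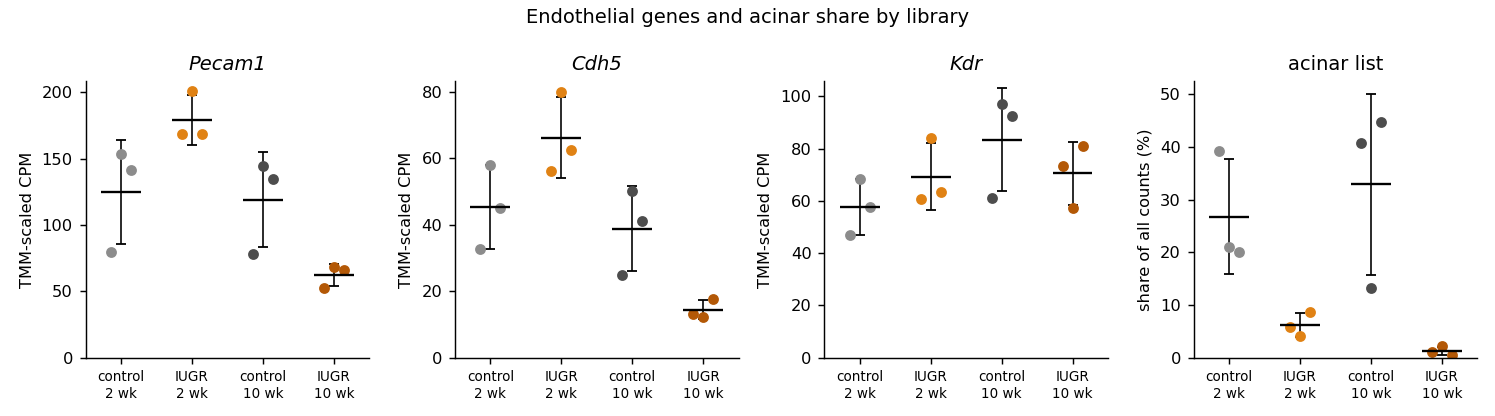
Level of Pecam1, Cdh5 and Kdr in TMM-scaled CPM and share of all counts in the acinar list in percent (y axes, from 0) in the 4 groups (x axis); points are libraries, bars the mean and whiskers the SD of 3 libraries. In 10-week IUGR islets Pecam1 (52.8 to 68.3 CPM) and Cdh5 (12.3 to 17.7 CPM) lay below all controls of that age, Kdr overlapped them, and the acinar share was 2.18% or less.

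At 2 weeks, whether growth restriction went with other ligand levels was tested with edgeR's quasi-likelihood test, with Benjamini-Hochberg adjustment over all 20733 tested transcripts and an adjusted p under 0.05 as the threshold. None of the 6 ligands passed, while 3.88% of all transcripts did (1.66% higher and 2.21% lower in IUGR islets). Angpt2 came nearest, 0.90 ± 0.25 higher in IUGR islets on the log2 scale (± is the standard error of a log2 fold change throughout, edgeR adjusted p = 0.0622, n = 3). Vegfb differed by -0.41 ± 0.14 (edgeR adjusted p = 0.0961), Vegfc by 0.54 ± 0.18 (0.0980), Pgf by 0.66 ± 0.37 (0.253), Vegfa by -0.19 ± 0.12 (0.318) and Angpt1 by 0.27 ± 0.28 (0.551). Vegfb, Vegfc and Angpt2 had an unadjusted p under 0.05, as did 28.6% of all transcripts. DESeq2 called 2 of the 6, Angpt2 (DESeq2 adjusted p = 0.0067) and Vegfc (0.0383), but it called 3166 transcripts in all, where edgeR called 804. Without replicate 3 of the 2-week controls edgeR called Angpt2 (adjusted p = 0.0424) and Vegfb (0.0482), and 2350 transcripts in all.

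The libraries of the 2-week groups did not overlap for any of the 6 ligands: Vegfc, Pgf, Angpt1 and Angpt2 lay wholly higher in IUGR islets, as did 21.8% of all transcripts, and Vegfa and Vegfb wholly lower, as did 16.8%. The median log2 difference of the 6 was 0.40, beside 0.05 over all transcripts. The summed levels of stromal and vascular lists lay higher at the same time. The summed level of 10 fibroblast and matrix genes was 9401.9 to 10961.5 CPM in IUGR islets against 4581.3 to 7979.5 CPM in controls, 11 pericyte and smooth muscle genes summed to 1663.0 to 2414.7 against 913.7 to 1291.4 CPM, and 15 endothelial genes to 1081.1 to 1287.2 against 615.0 to 1001.3 CPM. Gene by gene edgeR called 2 of the 10, 1 of the 11 and 0 of the 15, all higher. Pecam1 (0.52, edgeR adjusted p = 0.208), Cdh5 (0.55, 0.202) and Kdr (0.26, 0.422) did not pass. None of the genes found on these lists was at 0 in any library, and the part of these cells in the ligand values was not tested. With the acinar level of each library as a covariate the difference of Angpt2 was 0.62 (edgeR adjusted p = 0.489) and that of Pgf turned to -0.22 (0.861). The acinar level separates the 2-week groups entirely, so such a fit cannot tell it from the condition.

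Receptors and other genes of the pathway gave few calls in edgeR at 2 weeks. None of the 7 receptors passed in edgeR or DESeq2, 2 had an unadjusted p under 0.05, and all 7 estimates were above 0 with a median of 0.39. The 12 tested genes that encode other ligands of these families, angiopoietin-like proteins or matrix and guidance proteins that bind VEGF or its receptors also gave no call in either tool, with 3 at an unadjusted p under 0.05. Among 16 genes known to respond to VEGF or to mark sprouting tip cells, 1 rose: Apln, the ligand of the apelin receptor and a tip cell product, from 2.72 to 3.29 CPM in controls to 7.24 to 10.4 CPM in IUGR islets (1.46 ± 0.28, edgeR adjusted p = 0.0389). Of 10 genes of oxygen sensing, 1 rose: Hif1a, the oxygen-regulated subunit of the hypoxia-inducible factor that drives Vegfa transcription, from 53.3, 62.2 and 68.2 to 90.4, 89.7 and 79.2 CPM (0.50 ± 0.10, edgeR adjusted p = 0.0429). Both calls were lost in 5 of the 6 fits that left out 1 library of these groups, all but that without control replicate 3, where adjusted p-values reached 0.149 for Apln and 0.173 for Hif1a, and with the acinar covariate (0.318 and 0.377). None of 15 signalling genes downstream of the receptors passed in edgeR, where 2 had an unadjusted p under 0.05, and 1 did in DESeq2. DESeq2, with 3166 transcripts called in all, called 4 of the 16 response genes higher, Angpt2 among them, and none lower. It called 3 of the 10 oxygen sensing genes higher and none lower. In edgeR 6 of the response genes and 4 of the oxygen sensing genes had an unadjusted p under 0.05.

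At 10 weeks Vegfa rose and both angiopoietins fell in growth-restricted islets. Vegfa was 0.55 ± 0.12 higher on the log2 scale (1.47-fold, edgeR adjusted p = 0.0096, n = 3), with all 3 IUGR libraries above all 3 controls, as in 21.3% of transcripts. Angpt2 was 1.26 ± 0.26 lower (log2 fold change -1.26, edgeR adjusted p = 0.0072), with all 3 IUGR libraries below all 3 controls, as in 18.9% of transcripts. Angpt1 had a log2 fold change of -1.03 ± 0.31 (edgeR adjusted p = 0.0298), with groups that overlapped. These were 1 ligand higher and 2 lower of 6, where 27.9% of all transcripts passed, 12.4% higher and 15.5% lower. Vegfb (-0.29 ± 0.14, edgeR adjusted p = 0.144), Pgf (-0.39 ± 0.40, 0.497) and Vegfc (-0.16 ± 0.19, 0.565) did not pass. The median of the 6 log2 differences was -0.34, beside -0.01 over all transcripts.

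These calls differed in how far they rested on single libraries. Angpt2 was called in all 6 fits that left out 1 library of the 2 groups, with edgeR adjusted p-values of 0.0023 to 0.0295. Vegfa lost its call without replicate 3 of the 10-week controls (0.49, adjusted p = 0.0501). Angpt1 lost it without control replicate 2 (-0.91, 0.0812), control replicate 3 (-0.89, 0.103), IUGR replicate 2 (-0.81, 0.0978) and IUGR replicate 3 (-0.83, 0.101), and also when both controls with over 40% acinar counts were left out (-1.16, 0.0600). In that fit Vegfa stayed past the threshold (0.65, edgeR adjusted p = 0.0319), as did Angpt2 (-1.30, 0.0171), with 1 control library whose spread was taken to be that of the other groups. Fitted with the acinar level of each library as a covariate, none of the 3 passed: Vegfa stood at 0.41 (edgeR adjusted p = 0.420), Angpt2 at -1.87 (0.0779) and Angpt1 at -1.33 (0.241). The acinar level separates these groups entirely, so it and the condition cannot be told apart at this age.

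The lists that rose and fell beside them were the following. Of 9 tested beta cell genes, 4 were higher in 10-week IUGR islets and none lower, with a median log2 difference of 0.70. Of 15 endothelial genes, 12 fell (median -0.93), among them Cdh5 (-1.43 ± 0.28, edgeR adjusted p = 0.0054) and Pecam1 (-0.93 ± 0.26, 0.0241), their summed level being 485.1 to 665.5 CPM against 717.9 to 1218.0 CPM in controls. Of 10 fibroblast and matrix genes, 9 fell (median -2.01), to 304.5 to 381.9 CPM in sum from 795.0 to 1689.4 CPM, and of 11 tested pericyte and smooth muscle genes 3 fell (median -0.59). Cdh5 kept its call in every fit without 1 library, whereas Pecam1 lost it in 5 of 6, those without control replicate 2 or 3 or any 1 of the IUGR libraries, with adjusted p-values up to 0.0830. Among 26 acinar genes, 25 fell, with a median of -5.77. The part of these cell types in the ligand values was not tested.

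Of the 7 receptors 4 fell at 10 weeks and none rose, with a median of -0.67. Tek, the angiopoietin receptor, went from 52.8, 98.8 and 97.0 CPM in controls to 32.3, 36.8 and 40.1 CPM in IUGR islets (-1.19 ± 0.24, edgeR adjusted p = 0.0069). Its partner Tie1 went from 36.7, 66.5 and 55.9 to 25.0, 24.7 and 31.2 CPM (-0.97 ± 0.24, 0.0148). The co-receptor Nrp1 (-0.63 ± 0.20, edgeR adjusted p = 0.0351) and the Vegfc receptor Flt4 (-0.67 ± 0.22, 0.0424) also fell. The receptor tyrosine kinases that bind Vegfa did not pass: Flt1 differed by -0.27 ± 0.25 (edgeR adjusted p = 0.447) and Kdr by -0.24 ± 0.21 (0.412). The co-receptor Nrp2 stood at the threshold in edgeR (-0.68 ± 0.23, 0.050). Nrp2 passed with RLE scaling (edgeR adjusted p = 0.0492), in DESeq2 (0.0241), without control replicate 1 (-0.85, 0.0108) and without both controls of over 40% acinar counts (-1.12, 0.0087). Angpt1, Angpt2 and their receptor pair Tek and Tie1 were thus all called lower, though the Angpt1 groups overlapped. Vegfa was called higher beside overlapping levels of Kdr and Flt1 and a lower level of the co-receptor Nrp1. Of these receptors Tek was called in all 6 fits without 1 library, whereas Tie1 lost its call without IUGR replicate 1 or 2 (adjusted p up to 0.0524). Nrp1 (up to 0.121) and Flt4 (up to 0.169) lost theirs in 5 of the 6 fits, all but that without control replicate 1.

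Of the 12 other ligands and extracellular modulators 7 fell and none rose (median -0.91). They included Svep1, a matrix protein of lymphatic vessel growth (-1.50 ± 0.28, edgeR adjusted p = 0.0044), the angiopoietin-like protein Angptl2 (-1.10 ± 0.27, 0.0145), the antiangiogenic matrix protein Thbs2 (-1.04 ± 0.26, 0.0154) and the neuropilin ligand Sema3f (-0.74 ± 0.19, 0.0164). Of 16 VEGF response and tip cell genes, which include Angpt2 and Pgf, 6 fell and none rose (median -0.76). Plvap, the protein of the diaphragms of fenestrated capillaries, had a log2 fold change of -1.13 ± 0.23, the endothelial guidance receptor Robo4 one of -1.04 ± 0.21 and the endothelial Notch receptor Notch4 one of -1.12 ± 0.26. Esm1, a secreted proteoglycan induced by VEGF, did not pass (0.47 ± 0.18, edgeR adjusted p = 0.0693). Among 15 signalling genes 3 fell, the phospholipase Plcg1 (-0.72 ± 0.14), the regulatory kinase subunit Pik3r1 (-0.85 ± 0.18) and the endothelial phosphatase Ptprb that acts on Tek (-1.01 ± 0.28), and the adaptor Grb2 rose (0.31 ± 0.10, edgeR adjusted p = 0.0443). None of the 10 oxygen sensing genes passed in edgeR, where 5 had an unadjusted p under 0.05, and DESeq2 called 1 higher and 1 lower. Of the 20 ligands, endothelial and pathway genes named with a call at this age, 9 kept it in every fit without 1 library, 12 kept it with the acinar covariate and 13 in a fit of the 6 libraries alone, where Angpt1 (adjusted p = 0.108), Flt4, Nrp1, Angptl2, Thbs2, Sema3f and Grb2 lost it. With the endothelial level as a covariate 19 lost it. Cdh5, the one that did not, is part of that level, as are Pecam1 and Kdr, so the fit is no test of these 3 genes. That level also separates the 10-week groups entirely, so the fit cannot tell it from the condition. Angptl2 lost its call without IUGR replicate 2 (adjusted p = 0.0524) and Thbs2 without IUGR replicate 1 (0.0562). Sema3f lost it without control replicate 2, control replicate 3 or IUGR replicate 2 (up to 0.0586), Ptprb without those or IUGR replicate 1 (up to 0.0795), and Grb2 without control replicate 3 or any 1 IUGR library (up to 0.146).

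Whether the effect of growth restriction differed between ages was tested directly, as the difference of the 2 log2 fold changes. It passed for Vegfa, where the 10-week effect exceeded that at 2 weeks by 0.75 ± 0.18 (edgeR adjusted p = 0.0182, n = 3), and for Angpt2, where it lay below it (-2.16 ± 0.36, 0.0053). These were 1 of 6 ligands in each direction, where 14.3% of all transcripts passed, 3.97% higher and 10.4% lower. Angpt1 (-1.30 ± 0.42, edgeR adjusted p = 0.0606), Vegfc (-0.69 ± 0.26, 0.102), Pgf (-1.05 ± 0.54, 0.214) and Vegfb (0.12 ± 0.20, 0.727) did not pass, though Angpt1 did in DESeq2 (0.0176), without replicate 1 of the 10-week controls (0.0340) and without replicate 1 of the 10-week IUGR islets (0.0085). Pgf passed without replicate 1 of the 10-week controls (-1.32, edgeR adjusted p = 0.0363) and without both controls of over 40% acinar counts (-1.70, 0.0204). Vegfa and Angpt2 were called in every fit that left out 1 library, with edgeR adjusted p-values of 0.0049 to 0.0495 and 0.0014 to 0.0182. With the acinar covariate the difference of Vegfa was 0.67 (0.0660) and that of Angpt2 -2.48 (0.0050), and Vegfc (-1.07, 0.0295) and Pgf (-1.91, 0.0266) passed as well, as did Kdr (-1.01, 0.0435). With the endothelial level as a covariate neither passed (Vegfa 0.64, edgeR adjusted p = 0.339, Angpt2 -0.96, 0.283), and no transcript of the whole table did, with 2763 at an unadjusted p under 0.05. The acinar and the endothelial level each separate the 10-week groups entirely, and also the ages of IUGR islets. Fits with these covariates therefore cannot tell such levels from condition and age.

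The endothelial genes and the angiopoietin receptors gave differences of the same sign as Angpt2. The values were -1.45 for Pecam1 (edgeR adjusted p = 0.0254), -1.97 for Cdh5 (0.0087), -1.69 for Tek (0.0103), -1.30 for Tie1 (0.0289), -1.11 for Nrp1 (0.0235) and -1.21 for Nrp2 (0.0315), while Kdr did not pass (-0.51 ± 0.30, 0.271). Of these, Cdh5 and Tek were called in every fit without 1 library. Pecam1 and Nrp1 each lost their call in 4 of the 12 such fits (adjusted p up to 0.0648 and 0.0659), both of them without 10-week control replicate 2 or 3 and without 2-week IUGR replicate 2, and besides without 10-week IUGR replicate 1 (Pecam1) or 2 (Nrp1). Tie1 lost its call in 7 and Nrp2 in 8 of these fits (up to 0.0740 for each), which left out libraries of all 4 groups.

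Each ligand was then set against the endothelial level of its own library, the mean log2 CPM of Pecam1, Cdh5 and Kdr, and group means of that log2 difference were compared. An exact two-sided permutation test of 3 against 3 libraries cannot give a p below 0.10, and adjusted over the 24 comparisons of 6 ligands it cannot pass the threshold, so overlap of the libraries is described instead. At 2 weeks Vegfa relative to endothelium was lower by 0.66 in IUGR islets (difference of means -0.66, from 1.10 ± 0.36 to 0.44 ± 0.24, SD, n = 3, exact p = 0.10, adjusted 0.218) and Vegfb by 0.87 (-0.87, exact p = 0.10), both without overlap, and Angpt2 was higher by 0.48 (exact p = 0.10), also without overlap. Vegfc (0.07), Pgf (0.17) and Angpt1 (-0.19) overlapped. The background was 32.3% of transcripts wholly lower and 2.44% wholly higher on this scale. The 2 lower ligands of 6 were therefore near the background share, and Angpt2 was on the side taken by few transcripts. The place of Angpt2 depended on the reference: against Cdh5 alone its libraries overlapped, which left 2 ligands without overlap. Its difference of means was 0.38, 0.38 and 0.69 against Pecam1, Cdh5 and Kdr alone.

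At 10 weeks the background lay the other way, with 53.1% of transcripts wholly higher relative to endothelium in IUGR islets and 4.20% wholly lower. Vegfa relative to endothelium stood at 2.20, 1.08 and 1.16 in controls and at 3.00, 2.82 and 2.78 in IUGR islets on the log2 scale, a difference of means of 1.39 or 2.62-fold (exact p = 0.10, adjusted 0.218). Vegfb (0.54) and Vegfc (0.67) were also higher without overlap, while Pgf (0.61), Angpt1 (-0.25) and Angpt2 (-0.38) overlapped. The count of 3 of 6 was at the background share. For Angpt2 the difference of -1.26 in its own level came down to -0.38 once the endothelial level of each library was subtracted, and its libraries, at -2.48, -2.73 and -2.27 in controls and -2.96, -2.61 and -3.04 in IUGR islets, then overlapped.

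The choice of endothelial gene moved these values. At 10 weeks Vegfa lay higher in IUGR islets by 1.45 against Pecam1 alone, 1.94 against Cdh5 alone and 0.78 against Kdr alone. Angpt2 lay at -0.32, 0.17 and -0.99 against the same 3 genes, so its sign depended on the reference. Vegfb lay at 0.60 and 1.09 against Pecam1 and Cdh5 but at -0.06 against Kdr, and Vegfc at 0.73, 1.22 and 0.07.

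**Figure D3:**
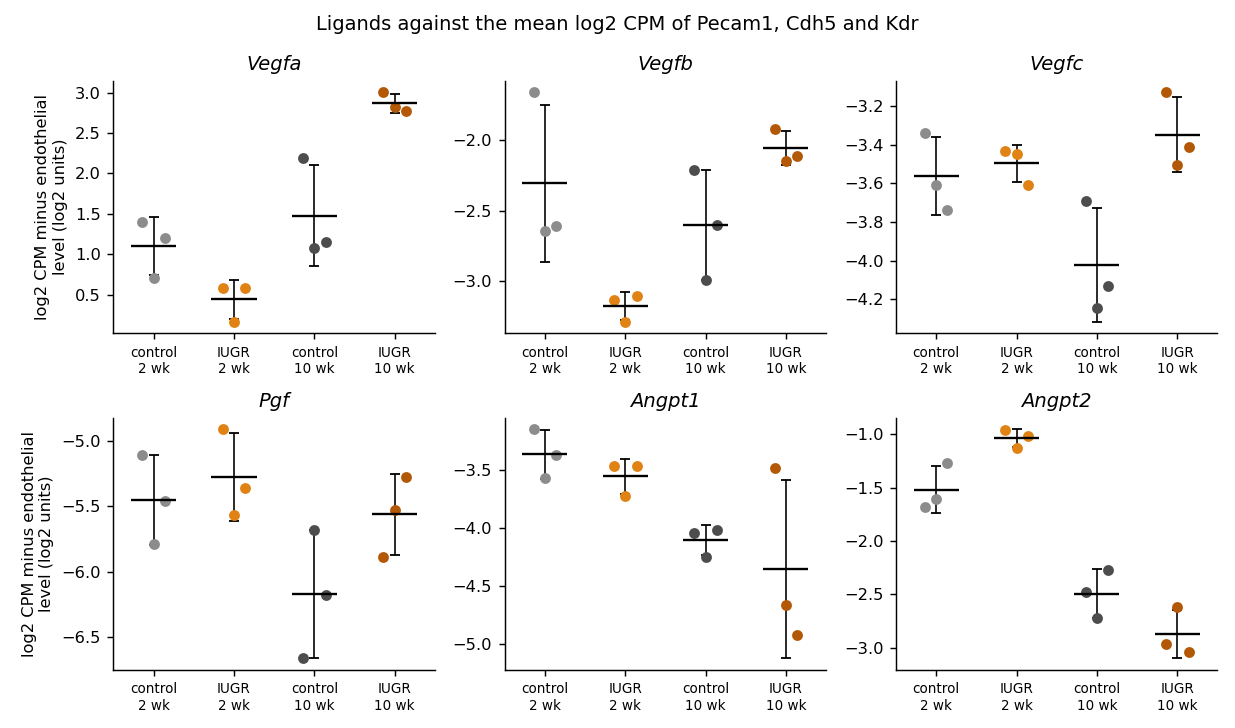
Log2 CPM of each ligand minus the mean log2 CPM of Pecam1, Cdh5 and Kdr in the same library (y axis, log2 units, scaled per panel) in the 4 groups (x axis); points are libraries, bars the mean and whiskers the SD of 3 libraries. Vegfa was lowest in 2-week IUGR islets (mean 0.44) and highest in 10-week IUGR islets (mean 2.87), and the 10-week groups of Angpt2 overlapped on this scale.

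Between 2 and 10 weeks in controls Vegfa rose by 0.45 ± 0.12 on the log2 scale (edgeR adjusted p = 0.0187, n = 3) and Angpt2 fell (-0.92 ± 0.25, 0.0189), 1 ligand in each direction, where 17.2% of all transcripts rose and 15.1% fell (32.3% in all). Angpt1 (-0.65 ± 0.29, edgeR adjusted p = 0.110), Vegfc (-0.40 ± 0.19, 0.122), Vegfb (-0.23 ± 0.14, 0.227) and Pgf (-0.47 ± 0.38, 0.366) did not pass, though Vegfc did with the endothelial covariate (-0.44, 0.0291). Both calls depended on single libraries. Vegfa lost its call without replicate 1 of the 10-week controls (0.32, edgeR adjusted p = 0.0916), replicate 1 of the 2-week controls (0.38, 0.0587) and replicate 2 of the 2-week controls (0.41, 0.0671). Angpt2 lost it without 2-week replicate 2 (-0.81, 0.0662) and without 2-week replicate 3 (-0.75, 0.0615), and neither passed without both 10-week controls of over 40% acinar counts (Vegfa 0.38, 0.149, Angpt2 -0.86, 0.0923). The libraries of Vegfa, Vegfc and Angpt1 did not overlap between ages, 1 wholly higher and 2 wholly lower, where 20.6% and 20.5% of transcripts did so.

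The endothelial genes gave no call in edgeR with age in controls: Pecam1 differed by -0.07, Cdh5 by -0.22 and Kdr by 0.53 ± 0.21 (edgeR adjusted p = 0.0728). Kdr was called in DESeq2 (0.55, adjusted p = 0.0380), with the acinar covariate (0.68, 0.0161) and without 10-week control replicate 1 (0.70, 0.0285). Relative to the endothelial level Angpt1 (-0.74) and Angpt2 (-0.97) lay wholly lower at 10 weeks (exact permutation p = 0.10 each, n = 3), as did 13.6% of transcripts, and no ligand lay wholly higher, as did 8.48%. Against Pecam1, Cdh5 and Kdr alone Angpt1 lay at -0.61, -0.43 and -1.19 and Angpt2 at -0.84, -0.66 and -1.42. Flt1 rose (1.04 ± 0.25, edgeR adjusted p = 0.0094) and the other 6 receptors, Kdr among them, did not pass in edgeR. Among the other ligands and modulators 5 of 12 fell, led by Angptl1 (-2.52 ± 0.32) and Thbs2 (-1.71 ± 0.26). In the response list Esm1 rose (1.45 ± 0.18) and the basement membrane protein Nid2 fell (-1.48 ± 0.22), among 2 higher and 4 lower of 16. Ppargc1a, a coactivator that can drive Vegfa outside the hypoxia pathway, rose (1.53 ± 0.33), and Egln3, a prolyl hydroxylase that marks hypoxia-inducible factors for breakdown, fell (-0.78 ± 0.27, edgeR adjusted p = 0.0459), as the 2 calls among the 10 oxygen sensing genes. Egln3 lost its call without 2-week replicate 2 or 3 or 10-week replicate 1 or 2 (adjusted p up to 0.174). Plcg1 fell (-0.86) and Grb2 rose (0.53) among 4 calls in 15 signalling genes. All 9 tested beta cell genes rose over the same span, with a median of 1.88, and 9 of 10 fibroblast and matrix genes fell (median -1.63).

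In growth-restricted islets 5 of the 6 ligands changed between 2 and 10 weeks, where 56.5% of all transcripts did (27.3% higher and 29.2% lower). Vegfa rose by 1.19 ± 0.13 on the log2 scale (2.29-fold, edgeR adjusted p = 2.34e-05, n = 3). Angpt2 fell 8.42-fold (-3.07 ± 0.27, edgeR adjusted p = 9.18e-06) and Angpt1 fell 3.87-fold (-1.95 ± 0.30, 2.87e-04). Vegfc (-1.10 ± 0.19, edgeR adjusted p = 5.16e-04) and Pgf (-1.52 ± 0.38, 0.0061) also fell, and Vegfb did not pass (-0.11 ± 0.14, 0.528). The libraries of the 5 ligands did not overlap between ages, 1 wholly higher, where 33.9% of transcripts were, and 4 wholly lower, where 35.5% were. All 5 calls held in each of the 6 fits that left out 1 library, and in the fit with the acinar covariate. The acinar level separates the ages entirely in IUGR islets, so that last fit cannot tell it from age. The median of the 6 log2 differences was -1.31, and that over all transcripts was near 0.

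Endothelial and stromal genes fell over the same span. Pecam1 had a log2 fold change of -1.52 ± 0.27 and Cdh5 one of -2.20 ± 0.28, while Kdr was at 0.03 ± 0.21 (edgeR adjusted p = 0.925). All 10 fibroblast and matrix genes and 10 of 11 pericyte and smooth muscle genes fell, with medians of -3.93 and -1.90, and all 9 beta cell genes rose (median 2.11). Their part in the ligand values was not tested. With the endothelial level as a covariate Vegfa (1.09, edgeR adjusted p = 0.0117) and Angpt2 (-1.93, 0.0027) passed, whereas Vegfc (-0.39, 0.298), Pgf (-0.28, 0.768) and Angpt1 (-1.35, 0.101) did not. That level separates the ages entirely in these islets, so the fit cannot tell it from age. Relative to the endothelial level Vegfa lay 5.36-fold higher at 10 weeks and Vegfb was higher by 1.12 on the log2 scale, where 73.0% of transcripts lay wholly higher. Both depended on the reference: Vegfa lay at 2.72, 3.39 and 1.16 and Vegfb at 1.41, 2.08 and -0.14 against Pecam1, Cdh5 and Kdr alone. Angpt2 lay 3.57-fold lower on that scale without overlap (-1.83, exact permutation p = 0.10, n = 3), where 9.47% of transcripts were wholly lower, and at -1.54, -0.87 and -3.09 against the same 3 genes.

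Of the 7 receptors 5 fell with age in IUGR islets, led by Tie1 (-1.68 ± 0.25) and Tek (-1.56 ± 0.25), and Flt1 (0.39 ± 0.25) and Kdr did not pass. Among the other ligands and modulators 10 of 12 fell (median -2.27), led by Thbs2 (-3.41 ± 0.28) and Angptl1 (-3.35 ± 0.33). In the response list 12 of 16 fell and 1 rose (median -1.56): Apln fell (-3.38 ± 0.31), and Esm1 was the gene that rose (1.38 ± 0.18). Esm1 and Vegfa were thus higher at 10 weeks than at 2 weeks in both controls and IUGR islets. Egln3 fell (-2.02 ± 0.27) and Ppargc1a rose (1.28 ± 0.33), among 1 higher and 3 lower of the 10 oxygen sensing genes. Ppargc1a lost its call with the acinar covariate (0.77, edgeR adjusted p = 0.0975) and Egln3 with the endothelial covariate (-0.87, 0.0851). Plcg1 fell (-1.17) and Grb2 rose (0.63), among 2 higher and 4 lower of 15 signalling genes. The IUGR comparisons and the age comparisons draw on the same libraries in pairs, so their values are given side by side and are not independent of each other.

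**Figure D4:**
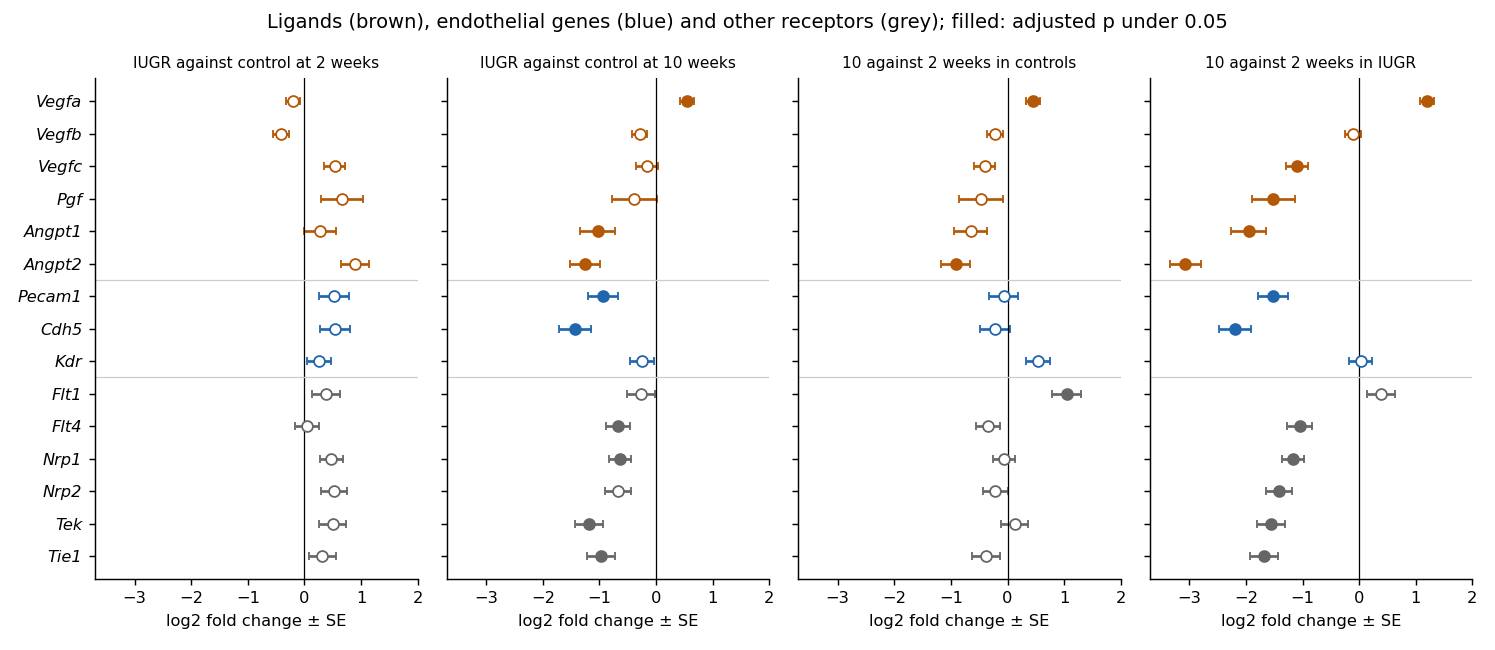
Log2 fold change with its SE (x axis) of the 6 ligands, the 3 endothelial genes and the 6 other receptors (y axis) in 4 comparisons of 3 against 3 libraries; filled points passed an adjusted p of 0.05 in edgeR. None was filled for IUGR at 2 weeks, Vegfa stood apart on the higher side at 10 weeks (0.55), and Angpt2 had the lowest value of these genes with age in IUGR islets (-3.07).

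The balance of the angiopoietins was read as Angpt2 minus Angpt1 in log2 CPM within each library, a measure chosen after their values had been seen. It was 1.84 ± 0.33 in 2-week controls and 2.52 ± 0.08 in 2-week IUGR islets (SD, n = 3), which did not overlap (difference 0.67, exact two-sided permutation p = 0.10, adjusted over 4 comparisons 0.200). At 10 weeks it was 1.61 ± 0.12 in controls and 1.49 ± 0.84 in IUGR islets, which overlapped (difference -0.13, exact permutation p = 1.0). In IUGR islets the 10-week libraries lay wholly below the 2-week libraries (difference -1.03, exact permutation p = 0.10), and in controls the ages overlapped (-0.23, exact permutation p = 0.40). The wide spread in 10-week IUGR islets came from replicate 1, the library with the highest Angpt1 of that group.

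The genes whose log2 CPM followed each ligand most closely were taken from 11433 candidates by Pearson's r over the 12 libraries, which share depth and cell makeup, so the values describe these libraries and carry no test. For Vegfa they were Lrrc8d, a subunit of volume-regulated anion channels (r = 0.994), Tuft1 (0.989) and the fibrillar collagen Col27a1 (0.987). For Angpt2 they were the intermediate filament gene Vim (0.996), the parathyroid hormone receptor Pth1r (0.995) and the caveolin Cav2 (0.994), and for Angpt1 Amotl2 (0.980), Palmd (0.979) and Dzip1l (0.979). For Vegfc they were Fads3 (0.968), Sema6d (0.963) and Ramp2 (0.961), for Pgf the replication licensing inhibitor Gmnn (0.966), Phf19 (0.961) and Gnb4 (0.941), and for Vegfb Cecr2 (0.943), Zdhhc23 (0.934) and Rabggta (0.930).

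Of the remaining members of these families, Figf had 9 to 205 counts per library and Angpt4 4 to 50, and both are counted among the other ligands above.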

How the data were processed

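The authors deposited 1 table of raw counts, whole numbers per Ensembl rat transcript in 12 libraries, with no normalization. Per the labels' protocols the libraries were stranded, ribosome-depleted and made from RNA with an integrity number above 7. TopHat2 2.0.9, bedtools, rn5 and mm9 appear, without a role, in the submitters' processing notes. How reads were counted, with which strand setting and annotation, is not given in the sources used here, so overlapping and antisense genes cannot be told apart.

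Counts were fitted with edgeR 4.0.16 under R 4.3.3 as 1 model of 4 groups, after filterByExpr and TMM scaling, with robust quasi-likelihood F tests adjusted over 20733 of 30309 transcripts and 0.05 as the threshold. Log2 CPM used a prior count of 2. Standard errors were derived from the log2 fold change and the root of its F. Exact permutation tests used SciPy 1.17.1. The members and gene lists were chosen with earlier results of these data known. All ligands and the 3 endothelial genes were named, with up to 4 called genes per pathway list and comparison, fewer for the age comparisons and receptors alone for the difference between ages. Promoter windows came from RefSeq GRCr8. Alternatives tried were DESeq2 1.42.0, another scaling (RLE), all transcripts unfiltered, an adjusted p under 0.1, another prior count, other reference genes, 1 transcript per symbol, acinar or endothelial covariates, the replicate block, single comparisons and omitted libraries. On 20733 simulated transcripts, 29% to 75% of 2-fold and 92% to 100% of 4-fold changes were called, depending on the comparison. Changes were set in few transcripts, all above a mean level that Pgf does not reach. These shares therefore do not carry over to Pgf or to comparisons in which many transcripts changed. No 2 libraries held the same counts.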

Additional observations from a re-analysis of the deposited data

Results flagged for a closer look

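Looked at here were the 6 ligands, the 3 endothelial genes and the 7 receptors, Kdr being on both of the latter lists. For 8 of these genes, the effect of growth restriction differed between 10 and 2 weeks by a test of the difference itself, the interaction of condition and age in edgeR. Among the ligands this held for Vegfa, by 0.75 on the log2 scale, with the 10-week effect the higher one, and for Angpt2, by -2.16, with the 10-week effect the lower one. The endothelial junction genes Pecam1 and Cdh5 differed by -1.45 and -1.97. The angiopoietin receptor Tek differed by -1.69 and its partner Tie1 by -1.30, and the co-receptors Nrp1 and Nrp2 by -1.11 and -1.21. Over all transcripts 14.3% passed this test, 3.97% higher and 10.4% lower. Pecam1, Nrp1, Tie1 and Nrp2 lost their call in some fits without 1 library, and all 8 genes lost it with the endothelial covariate.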

How the results depend on the processing

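RLE scaling and 1 transcript per symbol ended no call of a named gene and moved no count by over 1.5 times, and RLE scaling added Nrp2 at 10 weeks (adjusted p = 0.0492). With age in IUGR islets Vegfa (1.09 to 1.27) and Angpt2 (-3.29 to -1.93) passed under every alternative run. For IUGR at 2 weeks, where 804 transcripts and 0 ligands passed, an adjusted p under 0.1 gave 3021 and 3, DESeq2 3166 and 2, and without the filter on low counts 149 transcripts. Of the calls 42.9% were higher, beside 50.1% with RLE and 56.1% with DESeq2. With only the 6 libraries compared 0 passed (6239 at an unadjusted p under 0.05), and without 1 library each 0 to 2350 transcripts and 0 to 2 ligands. The acinar covariate gave 0 (2616 unadjusted) and the endothelial covariate 14.

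For IUGR at 10 weeks, where 5776 transcripts and 3 ligands passed, the acinar covariate gave 1997 and 0, the endothelial covariate 1361 and 0, only the libraries compared 3472 and 2, and leaving out 1 library 2971 to 7021 transcripts and 1 to 3 ligands. For the difference between ages (2973 transcripts, 2 ligands), an adjusted p under 0.1 gave 4735, the acinar covariate 4790, the endothelial covariate 0 transcripts and 0 ligands, and leaving out 1 library 1759 to 4983 transcripts and 2 to 4 ligands. For age in controls (6693 transcripts, 2 ligands), only the libraries compared gave 3448 and 0, leaving out both controls of high acinar share 3690 and 0, and leaving out 1 library 4552 to 6833 transcripts and 0 to 2 ligands. For age in IUGR islets (11717 transcripts, 5 ligands) the endothelial covariate gave 4190 and 2.

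Ligands without overlap against the endothelial level numbered 2 with age in controls, 5 with Kdr alone as reference and 4 without both high-acinar controls. With age in IUGR islets they numbered 3, and 5 with Kdr alone, and for IUGR at 10 weeks 3, and 3 to 5 without 1 library. For IUGR at 2 weeks they numbered 3, and 2 with Cdh5 alone. The shares of all transcripts given above hold only for the 3-gene reference with all libraries. Counts under the other settings have no such share beside them and are no result about the ligands. Groups of fewer libraries also overlap less readily, which alone can raise a count.

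Replicate numbers were not taken to pair the libraries, as not every same-numbered pair correlated above 0.1. The labels do not say what a shared number means, and such a check cannot show that pairing was absent. The correlation of same-numbered deviations was -0.137, 0.303 and -0.105 for IUGR at 2 weeks and 0.198, 0.218 and -0.085 at 10 weeks. It was 0.393, 0.478 and 0.001 for age in controls, where replicates 1 and 2 matched their own number best, and -0.068, -0.011 and -0.082 for age in IUGR islets. With the replicate block 1223 transcripts and 1 ligand, Angpt2 (adjusted p = 0.0357), passed at 2 weeks, Grb2 lost its call and Nrp2 gained one (0.0497) at 10 weeks, and no other named call was lost.

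Some values changed sign, and in none of these did both values pass. The acinar covariate turned Pgf (-0.22), Cdh5 (-0.12) and Kdr (-0.19) at 2 weeks, Grb2 (-0.031) at 10 weeks, Pecam1 (0.10) with age in controls and Kdr (-0.33) with age in IUGR islets. The endothelial covariate turned Kdr (-0.12) at 2 weeks, and at 10 weeks Vegfc (0.32), Pgf (0.57), Kdr (0.46), Flt1 (0.54), Nrp1 (0.041), Nrp2 (0.057) and Ptprb (0.040). It also turned Vegfc (0.047), Pgf (0.38), Kdr (0.58) and Tie1 (0.019) in the difference between ages. Kdr is itself part of the endothelial level, so its changes of sign with that covariate are no result about Kdr. Without both high-acinar controls Pgf (0.18), Pecam1 (0.21) and Cdh5 (0.15) changed sign with age in controls. Without 1 library Pecam1 ranged from -0.31 to 0.14 with age in controls, Pgf from -0.71 to 0.18 at 10 weeks, and Kdr from -0.081 to 0.19 with age in IUGR islets. The cause of these changes was not tested.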
